A study of Saccharomyces cerevisiae with 12 samples.

Results

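RNA levels were compared between budding yeast cells with the 4KR form of the histone variant H2A.Z and wild-type cells that, like them, contain LEU2 RNA. The comparison takes 6 of the 12 RNA-seq libraries of the study, the 3 libraries of H2AZ_4KR and the 3 of WT_Ino80, grouped by their labels. WT_Ino80, the wild type named for a different mutant, was taken because it contains LEU2 RNA. The other wild type, WT_H2AZ, does not. All strains are labelled BY4741, a haploid derivative of S288C, and were grown without treatment to mid-log phase in YPD, a rich glucose medium. The same strain label thus covers groups with and without LEU2 RNA, and does not give their full genotype. H2AZ_4KR is labelled only as the mutant H2AZ4KR, which by its name puts arginine in place of lysine at 4 positions. WT_Ino80 and WT_H2AZ are labelled as wild types, and Ino80_K929R, the remaining group, carries a substitution in the remodelling enzyme Ino80. The labels do not state how the allele was introduced, whether each group is 1 clone, or whether replicates are separate cultures, so p-values measure only the spread between these samples.

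Counts of H2AZ_4KR and WT_Ino80 come from different deposited tables, and genotype and table cannot be told apart in this comparison. WT_H2AZ shares its table with H2AZ_4KR but has 0 LEU2 counts. Values against WT_H2AZ are therefore given beside the main ones for many of the genes and lists. These 2 comparisons use the same 3 H2AZ_4KR libraries, so they are not independent of each other, and the test of the difference between them is the comparison of WT_Ino80 with WT_H2AZ.

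H2A.Z, encoded by HTZ1, replaces H2A in nucleosomes that flank the start sites of genes and lie near silent chromatin. The SWR1 complex deposits it, the NuA4 complex acetylates lysines in its N-terminal tail, and INO80 is a related remodelling complex. In yeast, H2A.Z is known for limiting the spread of silencing from telomeres and for its presence at inducible promoters. Leu3, the activator of leucine synthesis genes, responds to an intermediate of that pathway, and a cell lacking LEU2 makes no leucine of its own.

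The labels do not say which lysines were changed in the allele, so those marked here need not be the ones. The start of the HTZ1 coding sequence is shown because it encodes the N-terminal tail, in which NuA4 acetylates lysines. It lies on the minus strand of chromosome XV at chrXV:303936-303983 (R64, sacCer3), within the only exon of HTZ1 (chrXV:303579-303983). The first 16 codons hold 4 lysine codons, at codons 4, 9, 11 and 15 counting the start codon as 1, and the capitals mark them.
HTZ1: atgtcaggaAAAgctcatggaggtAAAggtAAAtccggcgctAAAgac

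Promoters of 4 genes described later are shown with sequence motifs in capitals, each from 250 bases before the start codon to 50 bases after it, read 5′ to 3′ on the strand of the gene in the R64 genome. ENP2 (chrVII:781517-781816, plus strand) and RPF2 (chrXI:592491-592790, minus strand) belong to the ribosome biogenesis genes. Capitals mark the PAC core GATGAG on either strand in both windows. The RRPE element AAAAATTT, sought on either strand, is marked in RPF2 and was not found in the ENP2 window. LEU1 (chrVII:478603-478902, minus strand) shows the Leu3 site. ZRT1 (chrVII:20728-21027, plus strand) shows the Zap1 site.
ENP2: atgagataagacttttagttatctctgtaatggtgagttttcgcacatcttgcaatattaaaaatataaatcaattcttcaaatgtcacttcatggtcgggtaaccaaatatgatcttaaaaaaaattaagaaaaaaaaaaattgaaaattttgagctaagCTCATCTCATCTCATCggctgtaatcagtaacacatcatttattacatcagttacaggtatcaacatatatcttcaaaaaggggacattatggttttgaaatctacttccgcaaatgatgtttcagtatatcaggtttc
RPF2: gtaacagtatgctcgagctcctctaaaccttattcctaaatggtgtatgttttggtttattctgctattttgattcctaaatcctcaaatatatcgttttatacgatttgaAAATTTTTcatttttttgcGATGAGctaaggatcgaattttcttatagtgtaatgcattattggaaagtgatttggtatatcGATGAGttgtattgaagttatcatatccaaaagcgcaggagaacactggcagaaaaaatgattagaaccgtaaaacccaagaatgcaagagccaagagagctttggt
LEU1: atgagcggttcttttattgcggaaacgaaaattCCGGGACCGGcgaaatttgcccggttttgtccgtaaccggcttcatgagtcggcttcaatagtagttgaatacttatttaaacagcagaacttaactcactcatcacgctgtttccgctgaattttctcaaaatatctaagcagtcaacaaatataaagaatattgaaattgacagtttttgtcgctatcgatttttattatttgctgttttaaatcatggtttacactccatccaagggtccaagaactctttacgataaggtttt
ZRT1: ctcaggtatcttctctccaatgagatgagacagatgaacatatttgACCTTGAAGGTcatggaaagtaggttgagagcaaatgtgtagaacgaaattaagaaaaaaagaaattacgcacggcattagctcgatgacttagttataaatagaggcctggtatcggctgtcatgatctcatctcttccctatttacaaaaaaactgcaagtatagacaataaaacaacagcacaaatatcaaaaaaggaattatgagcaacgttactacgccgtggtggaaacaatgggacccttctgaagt

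Counted fragments ranged from 17253140 to 19235586 per H2AZ_4KR library and from 17303402 to 18700339 per WT_Ino80 library. Levels are given in CPM, read counts scaled to a common library total. H2AZ_4KR libraries correlated with each other at r of 0.988 to 0.993 on the log2(CPM + 1) scale over genes, with WT_H2AZ libraries at 0.971 to 0.980 and with WT_Ino80 libraries at 0.915 to 0.955. WT_Ino80 replicate 1 stood apart from its own group, with r of 0.949 and 0.965 to the other WT_Ino80 libraries, which correlated at 0.981 with each other. Results that rest on it are given with and without it. Markers of the a mating type, which BY4741 has, were present in every library, with a summed level of 1669 to 1812 CPM in H2AZ_4KR and 706 to 1448 CPM in WT_Ino80 over 7 genes.

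**Figure D1:**
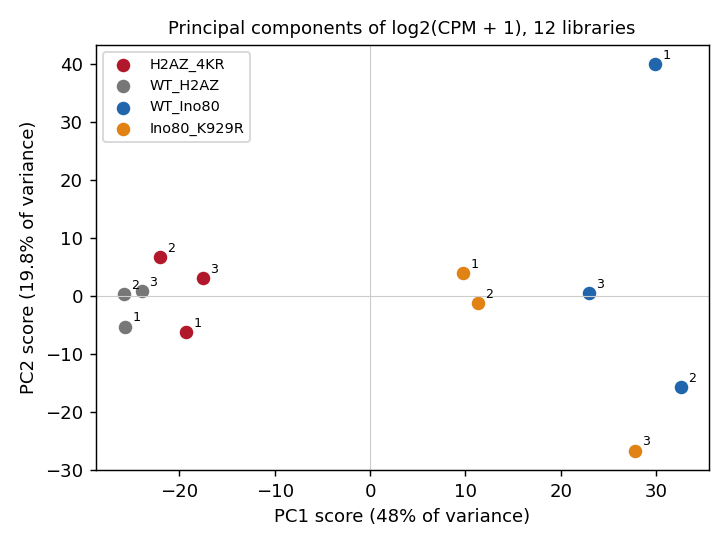
First 2 principal components of log2(CPM + 1) over genes, with the share of variance on each axis, for the 12 libraries numbered by replicate. H2AZ_4KR and WT_H2AZ libraries have negative PC1 scores (48% of variance), WT_Ino80 and Ino80_K929R libraries positive ones, and WT_Ino80 replicate 1 has the highest PC2 score.

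Across 6153 genes tested, 630 were higher and 771 lower in H2AZ_4KR than in WT_Ino80, 22.8% of the genes in all, of which 10.2% higher and 12.5% lower. Called means a fold over 1.5 together with a p, adjusted by Benjamini and Hochberg's method, below 0.05 in the quasi-likelihood test of edgeR. Counts of called genes in the lists below are to be read beside the 10.2% and 12.5% of all genes. A list near these shares shows no more calls than genes in general, and no list was tested as a set. Values for single genes given as higher by, or at, a number are log2 fold changes, against WT_Ino80 unless WT_H2AZ is named. Without adjustment, 2448 genes had p below 0.05. Against WT_H2AZ, 292 of 6106 genes were called higher (4.78%) and 447 lower (7.32%). The wild types differed from each other in 1843 of 6154 genes (29.9%), 964 of them higher in WT_Ino80 (15.7%) and 879 lower (14.3%). Scaling by total counts in place of TMM factors gave 414 higher and 899 lower genes in H2AZ_4KR against WT_Ino80, with the median of all genes at -0.10 in place of -0.01 on the log2 scale. The 3 H2AZ_4KR libraries lay above all 3 WT_Ino80 libraries for 17% of genes and below them for 27.3%, on the CPM scale, 44.2% in all. Against WT_H2AZ these shares were 10.4% and 34%, 44.4% in all. Without H2AZ_4KR replicate 1, 2 or 3 the number of called genes fell to 827, 692 or 811, and without WT_Ino80 replicate 1 it was 1624, of which 1228 were among the 1401.

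HTZ1 itself was higher in the mutant. It stood at 344, 359 and 459 CPM in H2AZ_4KR, at 143, 141 and 143 CPM in WT_Ino80 and at 98.9, 95.5 and 93.2 CPM in WT_H2AZ. The mutant libraries lay above all 6 wild-type libraries, and the wild types did not overlap either. Its log2 fold change against WT_Ino80 was 1.53 (SE 0.17, adjusted p = 0.00137), beside 2.15 against WT_H2AZ and 0.63 for WT_Ino80 against WT_H2AZ (adjusted p = 0.0111). The higher HTZ1 level and the substitution sit in the same libraries and cannot be told apart as sources of any other difference. The counts do not show the substitution itself, so HTZ1 checks the label only by its level.

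LEU2 RNA in both groups and its absence from WT_H2AZ were the reason for this comparison, so neither is a result of it. LEU2 (3-isopropylmalate dehydrogenase of leucine synthesis) did not pass the test between H2AZ_4KR and WT_Ino80. It stood at 148, 117 and 150 CPM in the mutant and at 183, 160 and 156 CPM in WT_Ino80. On the CPM scale every mutant library was below every WT_Ino80 library, as for 27.3% of all genes tested. That scale leaves out the TMM factors, which were 0.964 to 0.976 in the mutant and 0.922, 1.13 and 1.05 in WT_Ino80. The log2 fold change was -0.19 (SE 0.18, adjusted p = 0.477). All 3 WT_H2AZ libraries had 0 counts. Against a floor of 3 counts per library, LEU2 was at least 830-fold higher in H2AZ_4KR and at least 998-fold higher in WT_Ino80 than in WT_H2AZ. This floor covers counting error only. Of the other marker genes, MET17 had 0 counts in all 9 libraries and URA3 stayed at or below 0.116 CPM in each, both below the filter on low counts.

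HIS3, a histidine synthesis gene used as a marker in this background, stood at 116, 130 and 170 CPM in H2AZ_4KR and at 87, 71 and 60.4 CPM in WT_Ino80. The groups did not overlap, and the log2 fold change was 1.003 (SE 0.23, adjusted p = 0.0151). WT_H2AZ stood at 136, 176 and 179 CPM, a range that overlaps that of the mutant. ADE2, of adenine synthesis, was higher at 0.62 (SE 0.19, adjusted p = 0.0409). LYS2 and TRP1, of lysine and tryptophan synthesis, did not pass, at 0.12 and -0.02. HIS3 was not called without H2AZ_4KR replicate 2 or 3 or WT_Ino80 replicate 3. ADE2 was not called without H2AZ_4KR replicate 1, 2 or 3 or WT_Ino80 replicate 2 or 3.

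The 15 genes of branched-chain amino acid synthesis and other Leu3 targets had a median log2 fold change of 0.50 against WT_Ino80, beside -0.01 over all genes, with 3 called higher and 0 lower. Against WT_H2AZ the same 15 genes had a median of -0.45, with 0 called higher and 6 lower. LEU1 (isopropylmalate isomerase) stood at 160, 150 and 144 CPM in H2AZ_4KR, at 66.6, 121 and 104 CPM in WT_Ino80 and at 486, 417 and 499 CPM in WT_H2AZ. The mutant lay above WT_Ino80 and far below WT_H2AZ without overlap. LEU1 was higher by 0.75 (SE 0.17, adjusted p = 0.0151) against WT_Ino80 and lower, at -1.49 (SE 0.12, adjusted p = 6.76e-05) against WT_H2AZ. WT_Ino80 was itself below WT_H2AZ, at -2.24 (SE 0.20, adjusted p = 0.000529), which tests the difference between both values. LEU1 was not called without H2AZ_4KR replicate 1 or 2 or WT_Ino80 replicate 1.

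The remaining called members against WT_Ino80 were LEU9 (isopropylmalate synthase), at 0.90 (SE 0.24, adjusted p = 0.0279), and ILV3 (dihydroxyacid dehydratase), at 0.71 (SE 0.18, adjusted p = 0.0202). LEU4, the main isopropylmalate synthase gene, stood at 0.39 and BAT1, the mitochondrial branched-chain aminotransferase gene, at 0.40, and neither passed. Both were called lower against WT_H2AZ, at -0.86 and -1.05. BAP2, a permease gene for branched-chain amino acids, stood at 508, 483 and 562 CPM in the mutant, 293, 459 and 435 CPM in WT_Ino80 and 1040, 1101 and 1223 CPM in WT_H2AZ. The mutant lay above WT_Ino80 without overlap, and both lay well below WT_H2AZ, with log2 fold changes of 0.50 (adjusted p = 0.0555) and -0.98 (adjusted p = 0.000922). OAC1 (mitochondrial oxaloacetate carrier) and ALD5 (aldehyde dehydrogenase) stood at 0.10 and 0.57 against WT_Ino80, not called, and were called lower at -1.06 and -1.11 against WT_H2AZ. LEU9 was not called without H2AZ_4KR replicate 1, 2 or 3. ILV3 was not called without H2AZ_4KR replicate 1, 2 or 3 or WT_Ino80 replicate 1.

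ILV2, ILV6, BAT2, MAE1, GDH1, ILV5 and LEU3, the gene of the activator itself, were not called in either comparison, with log2 fold changes against WT_Ino80 of 0.55, 0.51, 0.05, 0.66, -0.13, -0.73 and -0.16. With 1 library left out, the count of 3 higher genes ranged from 0 (without H2AZ_4KR replicate 1 or 2) to 6 (without WT_Ino80 replicate 2), and it was 1 without WT_Ino80 replicate 1 or H2AZ_4KR replicate 3. Under scaling by total counts none of the 15 was called higher. The Leu3 site printed for LEU1 was found in the windows of 8 of 5988 genes (0.134%), LEU1, BAT1 and LEU2 among them.

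**Figure D2:**
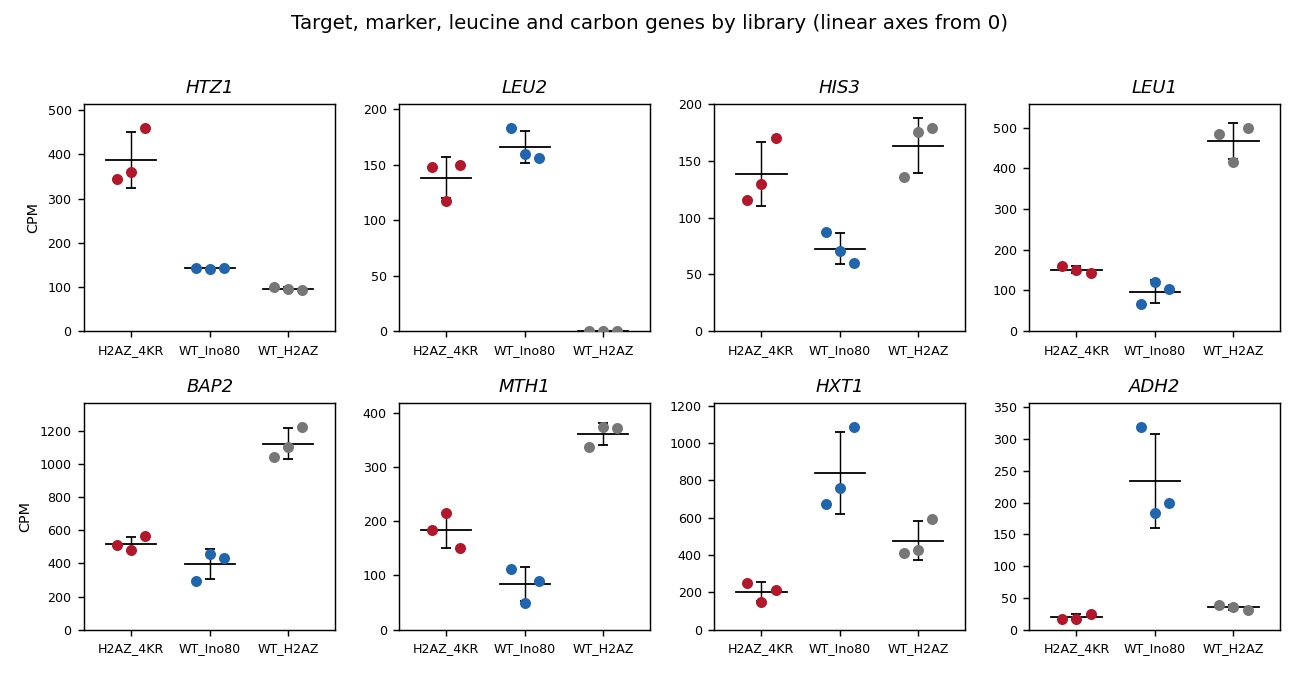
CPM of 8 genes in each library of H2AZ_4KR, WT_Ino80 and WT_H2AZ on linear axes from 0, with points for libraries, long bars for means and error bars for the SD of 3 libraries. HTZ1 is highest in the mutant, LEU2 is at 0 in WT_H2AZ, and LEU1 and BAP2 are far higher in WT_H2AZ than in either other group.

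Of 26 genes of gluconeogenesis, the glyoxylate cycle and the use of non-fermentable carbon, which glucose represses, 12 were lower and 0 higher in H2AZ_4KR than in WT_Ino80, with a median of -0.79. Against WT_H2AZ 21 were lower, with a median of -0.97. For 15 of the 26, the mutant libraries lay below all 6 wild-type libraries on the CPM scale, and for 14 after TMM scaling. Over all genes tested, 10.8% lay so on the CPM scale and 7.09% after TMM scaling. Without H2AZ_4KR replicate 1, 2 or 3 the count against WT_Ino80 was 8.

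ADH2, the alcohol dehydrogenase that consumes ethanol, stood at 16.8, 16.5 and 25.1 CPM in H2AZ_4KR, 319, 183 and 200 CPM in WT_Ino80 and 39.2, 35 and 31 CPM in WT_H2AZ. The mutant was lowest in every library, but WT_Ino80 stood far above both other groups, with log2 fold changes of -3.53 (SE 0.33, adjusted p = 0.000718) against WT_Ino80 and -0.71 (SE 0.17, adjusted p = 0.0158) against WT_H2AZ. PCK1 (PEP carboxykinase, of gluconeogenesis) was lower, at -3.14 (SE 0.53, adjusted p = 0.00485) and -2.23 in the same order. PDH1, of propionate metabolism, was lower, at -1.54 (SE 0.23, adjusted p = 0.00301) and -1.86. ICL2, the mitochondrial methylisocitrate lyase gene, was lower, at -1.45 (SE 0.25, adjusted p = 0.00509) and -0.71.

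Some glucose-repressed genes separated the wild types instead. SUC2 (invertase), chosen after its values were seen, stood at 380, 422 and 442 CPM in the mutant, 252, 227 and 373 CPM in WT_Ino80 and 2016, 1947 and 1580 CPM in WT_H2AZ. H2AZ_4KR was above WT_Ino80 without overlap but did not pass, at 0.63 (SE 0.21, adjusted p = 0.0563), and was lower than WT_H2AZ, at -2.01. ADR1 and CAT8, regulators of this group, stood at 0.33 and -0.16 against WT_Ino80, not called, and at -1.47 and -1.30 against WT_H2AZ, called lower. They too were chosen after their values were seen.

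Hexose transporter and sensor genes had 2 higher and 6 lower of 23 tested, with a median of 0.04. Against WT_H2AZ, 17 were lower and none higher, with a median of -1.01. HXT1, a low-affinity transporter of high glucose, stood at 251, 148 and 210 CPM in H2AZ_4KR, 671, 760 and 1086 CPM in WT_Ino80 and 413, 424 and 595 CPM in WT_H2AZ. It was lower in every mutant library, at -1.95 (SE 0.25, adjusted p = 0.00207), and lower than WT_H2AZ, at -1.10. HXT3 was lower, at -1.33 (SE 0.30, adjusted p = 0.0135), and the weakly expressed HXT10 and HXT9 at -3.10 and -2.51. MTH1, a co-repressor of HXT genes chosen after its values were seen, went the other way, at 183, 216 and 151 CPM against 112, 49.9 and 90.5 CPM in WT_Ino80 and 337, 374 and 372 CPM in WT_H2AZ. It lay between both wild types without overlap, with 1.18 (SE 0.33, adjusted p = 0.0296) and -0.84 (SE 0.13, adjusted p = 0.00208). The count of 6 lower genes was 10 without WT_Ino80 replicate 1, 4 without H2AZ_4KR replicate 1 or WT_Ino80 replicate 3, and 3 without H2AZ_4KR replicate 2 or 3. The 2 higher genes became 4 without WT_Ino80 replicate 1, 1 without H2AZ_4KR replicate 1, and 0 without H2AZ_4KR replicate 2 or 3 or WT_Ino80 replicate 3. HXT3 was not called without H2AZ_4KR replicate 2 or 3. MTH1 was not called without H2AZ_4KR replicate 1, 2 or 3 or WT_Ino80 replicate 3.

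In glycolysis and fermentation 3 of 22 genes were higher and 2 lower. PDC6, a minor pyruvate decarboxylase gene, had the lowest log2 fold change among called genes that average 10 CPM or more and whose groups do not overlap. It stood at 1.25, 2.09 and 1.26 CPM in the mutant, 22.8, 37.9 and 29.5 CPM in WT_Ino80 and 3.15, 4.17 and 3.29 CPM in WT_H2AZ. WT_Ino80 stands above both groups of the other table, with -4.18 (SE 0.29, adjusted p = 0.000351) against WT_Ino80 and -1.06 (SE 0.32, adjusted p = 0.0342) against WT_H2AZ. PDC5, of the same enzyme, was lower, at -1.05 (SE 0.17, adjusted p = 0.00398), while PYK2, a minor pyruvate kinase gene, and GCR1, an activator of glycolytic genes, were higher by 0.88 and 0.87. Without H2AZ_4KR replicate 2 or 3 none of the 22 was called higher, and 1 was without H2AZ_4KR replicate 1 or under total counts. PYK2 was not called without H2AZ_4KR replicate 2 or 3. GCR1 was not called without H2AZ_4KR replicate 1, 2 or 3.

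Galactose genes included 2 higher and 2 lower of 9, beside 0 higher and 5 lower against WT_H2AZ. GAL7 and GAL3, of galactose use and its induction, were lower, at -2.45 and -2.02, and lower than WT_H2AZ, at -1.63 and -1.69. GAL80, the repressor, and GAL10 were higher by 0.69 and 1.04. The respiratory chain and ATP synthase genes had 12 higher and 1 lower of 38, with a median of 0.43, against 0 higher and 4 lower relative to WT_H2AZ. QCR10 and COX7, subunits of complexes III and IV, were higher by 1.40 (SE 0.18, adjusted p = 0.00199) and 1.16 (SE 0.17, adjusted p = 0.003). Without H2AZ_4KR replicate 2 the count of 12 was 7. The 2 higher galactose genes became 1 without any 1 of the H2AZ_4KR libraries or under total counts. GAL10 was not called without H2AZ_4KR replicate 1, 2 or 3.

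The TCA cycle had 5 higher and 2 lower of 24 genes, with 3 higher without H2AZ_4KR replicate 1 or 2 or under total counts, 1 lower without H2AZ_4KR replicate 2 or WT_Ino80 replicate 3 and 0 lower without H2AZ_4KR replicate 3. SDH3 and SDH1, succinate dehydrogenase subunit genes counted in both lists, were higher by 0.87 (SE 0.13, adjusted p = 0.00307) and 1.16 (SE 0.19, adjusted p = 0.00395). MDH1 (malate dehydrogenase) was higher by 0.88 and CIT3 (methylcitrate synthase) lower, at -0.98. The storage carbohydrates trehalose and glycogen had 6 higher and 0 lower of 21 genes against WT_Ino80, and 0 higher and 7 lower against WT_H2AZ, with medians of 0.83 and -0.54. UGP1, which makes UDP-glucose, stood at 1798, 2048 and 1723 CPM in the mutant, 876, 670 and 1043 CPM in WT_Ino80 and 2594, 2804 and 2291 CPM in WT_H2AZ. It lay between both wild types, higher than WT_Ino80 by 1.18 (SE 0.23, adjusted p = 0.00827). GIP2 and PGM1 were higher by 1.39 and 0.63, and ATH1 (acid trehalase) by 0.63 but lower than WT_H2AZ, at -0.85. The count of 6 was 2 without any 1 of the H2AZ_4KR libraries, 4 without WT_Ino80 replicate 1 or 2, and 9 without WT_Ino80 replicate 3. CIT3 was not called without H2AZ_4KR replicate 3. PGM1 was not called without H2AZ_4KR replicate 1, 2 or 3 or WT_Ino80 replicate 1. ATH1 was not called without H2AZ_4KR replicate 1, 2 or 3 or WT_Ino80 replicate 2 or 3.

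Most ribosome biogenesis genes were lower than in WT_Ino80. Of 94 genes, 65 were lower and 0 higher, with a median of -0.85. Against WT_H2AZ none was lower and 10 were higher, with a median of 0.29, and 87 of the 94 were called higher in WT_Ino80 than in WT_H2AZ. ENP2, needed for the small subunit, stood at 67.1, 48.7 and 55.5 CPM in H2AZ_4KR, 155, 195 and 158 CPM in WT_Ino80 and 71.1, 57.1 and 69.8 CPM in WT_H2AZ. The mutant overlapped WT_H2AZ and lay below every WT_Ino80 library, at -1.47 (SE 0.17, adjusted p = 0.00138). IMP3, RPF1 and RPF2, of small and large subunit assembly, were lower, at -1.23 (SE 0.16, adjusted p = 0.00207), -1.24 (SE 0.16, adjusted p = 0.00214) and -1.07 (SE 0.14, adjusted p = 0.00238).

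The count of 65 was 81 without WT_Ino80 replicate 1, 57, 40 and 43 without H2AZ_4KR replicates 1, 2 and 3, and 70 under total counts. The PAC core seen in the printed ENP2 and RPF2 windows was found in 86 of the 94 windows (91.5%), against 1220 of 5988 windows of all protein-coding genes (20.4%). It was in 92.3% of the 65 lower genes and in 89.7% of the 29 others. The RRPE element was in 84% of the 94 and in 14.2% of all.

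Cytosolic ribosomal protein genes moved little against WT_Ino80, with 0 higher and 2 lower of 135 and a median of -0.15. Against WT_H2AZ 93 of 135 were higher, with a median of 0.65, and 81 were called higher in WT_Ino80 than in WT_H2AZ. RPS9A, chosen after its values were seen, stood at 140, 137 and 127 CPM in the mutant, 123, 165 and 97.5 CPM in WT_Ino80 and 59.1, 75 and 62.4 CPM in WT_H2AZ. Mutant and WT_Ino80 overlapped, and both lay above WT_H2AZ. The 2 lower genes became 11 under total counts and 7 without WT_Ino80 replicate 2, and 1 without H2AZ_4KR replicate 2 or 3. Without WT_Ino80 replicate 1, 14 were called higher. Many of these genes have near-identical copies, whose reads the counting leaves out or splits, so their single values are uncertain. Mitochondrial ribosomal protein genes had 2 higher and 2 lower of 70, with a median of 0.05. Their higher count was 5 without WT_Ino80 replicate 1, 1 without H2AZ_4KR replicate 1 or under total counts, and 0 without H2AZ_4KR replicate 2 or 3 or WT_Ino80 replicate 3. Their lower count was 0 without any 1 of the H2AZ_4KR libraries and 4 under total counts.

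**Figure D3:**
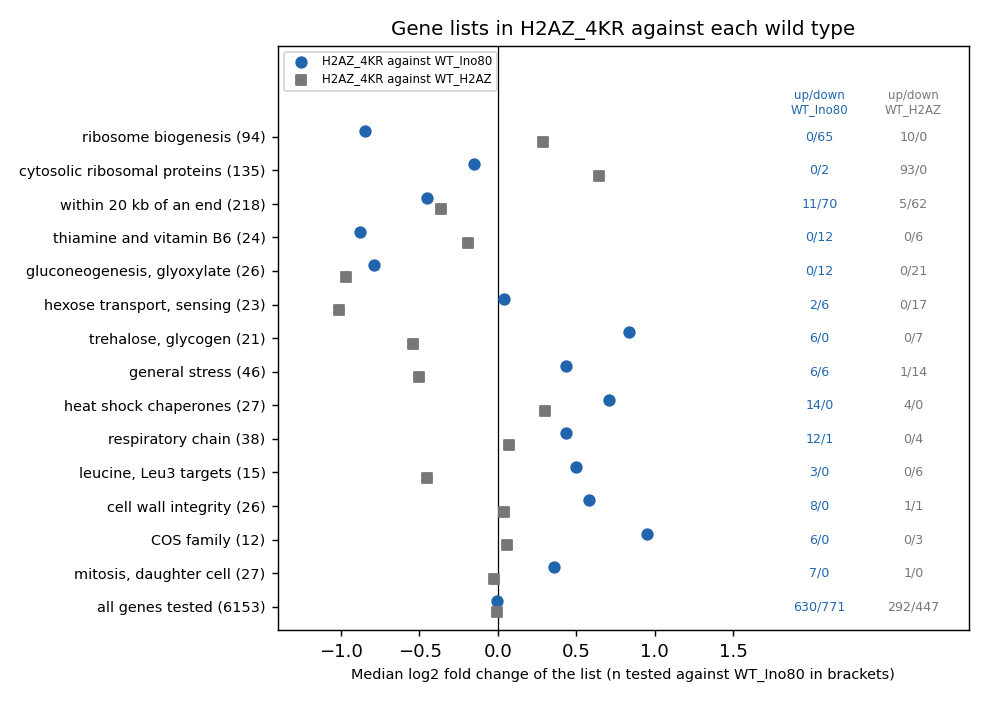
Median log2 fold change of 14 gene lists and of all genes in H2AZ_4KR against WT_Ino80 (circles) and against WT_H2AZ (squares), with the numbers of called higher and lower genes at the right. Ribosome biogenesis is at -0.85 against WT_Ino80 and 0.29 against WT_H2AZ, while genes within 20 kb of a chromosome end are below 0 in both.

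Of 27 heat shock chaperone genes, targets of Hsf1, 14 were higher and 0 lower, with a median of 0.70, and against WT_H2AZ 4 were higher. HSP82, which encodes Hsp90, stood at 786, 927 and 647 CPM in H2AZ_4KR, 273, 322 and 216 CPM in WT_Ino80 and 905, 774 and 632 CPM in WT_H2AZ. Mutant and WT_H2AZ overlapped and WT_Ino80 was below both, with 1.63 (SE 0.21, adjusted p = 0.00199). BTN2, a sorting factor for misfolded proteins, stood at 192, 182 and 183 CPM, 23.1, 29.7 and 24.4 CPM and 186, 201 and 140 CPM in the same order, with the same pattern and 2.95 (SE 0.14, adjusted p = 4.46e-05). HSP78, the mitochondrial disaggregase gene, and CUR1, a relative of BTN2, were higher by 2.29 (SE 0.28, adjusted p = 0.00169) and 1.37 (SE 0.20, adjusted p = 0.003). Without H2AZ_4KR replicates 1, 2 and 3 the count of 14 was 8, 5 and 8, without WT_Ino80 replicate 3 it was 8, and under total counts 9.

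General stress genes, the targets of Msn2 and Msn4, were split against WT_Ino80, with 6 higher and 6 lower of 46. Relative to WT_H2AZ, 1 was higher and 14 were lower, with a median of -0.50. NQM1, a transaldolase gene, stood at 5.41, 9.1 and 17.8 CPM in the mutant, 235, 163 and 150 CPM in WT_Ino80 and 45.7, 67.9 and 29.3 CPM in WT_H2AZ. Every mutant library was below all 6 wild-type libraries, at -4.02 (SE 0.45, adjusted p = 0.00137) and -1.995 (SE 0.38, adjusted p = 0.00494). GRE1 was lower, at -1.65 and USV1, a transcription factor gene, higher by 1.54. HSP12, a membrane stress protein gene chosen after its values were seen, stood at 84.2, 120 and 300 CPM in the mutant and 1742, 844 and 612 CPM in WT_Ino80, lower, at -2.62 (SE 0.58, adjusted p = 0.0129). Cell wall integrity genes had 8 higher and 0 lower of 26, with RLM1, the transcription factor of the pathway, at 1.61 (SE 0.21, adjusted p = 0.00214) and the wall protein genes CCW14, PST1 and BGL2 at 0.998, 0.78 and 0.77. Their count was 11 without WT_Ino80 replicate 1 and 5, 3 and 4 without H2AZ_4KR replicates 1, 2 and 3. The count of higher stress genes was 9 without WT_Ino80 replicate 1, and 2 and 3 without H2AZ_4KR replicates 2 and 3. That of lower ones was 3 without H2AZ_4KR replicate 2. HSP12 was not called without H2AZ_4KR replicate 2. BGL2 was not called without H2AZ_4KR replicate 2 or 3.

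Of 24 thiamine and vitamin B6 genes, 12 were lower than in WT_Ino80 and 6 lower than in WT_H2AZ, with 0 higher in either. Their medians were -0.88 and -0.19. For 11 genes the mutant lay below all 6 wild-type libraries, both on the CPM scale and after TMM scaling. Over all genes tested these shares were 10.8% and 7.09%. SNZ3, of vitamin B6 synthesis, stood at 1.61, 2.09 and 2.87 CPM in the mutant, 39.1, 24.7 and 29.1 CPM in WT_Ino80 and 7.73, 7.02 and 5.38 CPM in WT_H2AZ. The 3 groups did not overlap, and it was lower, at -3.76 (SE 0.34, adjusted p = 0.0007) and -1.47 (SE 0.28, adjusted p = 0.0052). SNZ2, a near-identical copy whose reads may not be told apart from those of SNZ3, was lower, at -3.19 and -1.66. THI4, of thiamine synthesis, and THI73, a transporter gene, were lower, at -2.88 (SE 0.27, adjusted p = 0.000739) and -1.75 (SE 0.23, adjusted p = 0.00225).

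Among NAD synthesis genes 6 of 17 were lower and 0 higher. BNA2, the first step from tryptophan, was lower, at -2.94 (SE 0.34, adjusted p = 0.00164), and BNA4, NRK1 and BNA7 at -1.03, -0.89 and -0.87. Without any 1 of the H2AZ_4KR libraries 4 were lower. Purine and one-carbon genes had 6 higher and 3 lower of 29. IMD2, the IMP dehydrogenase of guanine nucleotide synthesis, stood at 498, 496 and 601 CPM in the mutant, 145, 167 and 218 CPM in WT_Ino80 and 279, 352 and 345 CPM in WT_H2AZ. It lay above all 6 wild-type libraries, at 1.69 (SE 0.18, adjusted p = 0.00134) and 0.85 (SE 0.13, adjusted p = 0.00179). ADE17 and ADE3 were higher by 1.36 and 0.70, and URA1, of pyrimidine synthesis, lower, at -1.18 (SE 0.14, adjusted p = 0.00166). The 3 lower genes became 1 without H2AZ_4KR replicate 1 or 3. The count of 6 was 9 without WT_Ino80 replicate 1, 2 without H2AZ_4KR replicate 2, and 3 without H2AZ_4KR replicate 1 or 3 or WT_Ino80 replicate 2 or 3. NRK1 was not called without H2AZ_4KR replicate 3. BNA7 was not called without H2AZ_4KR replicate 2. ADE3 was not called without H2AZ_4KR replicate 1 or 2.

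Amino acid genes under Gcn4 had 5 higher and 3 lower of 46. HIS4, of histidine synthesis, stood at 340, 321 and 412 CPM in the mutant, 103, 124 and 112 CPM in WT_Ino80 and 390, 407 and 487 CPM in WT_H2AZ, and was higher than WT_Ino80 by 1.76 (SE 0.15, adjusted p = 0.000611). ARG4 and ASN1, of arginine and asparagine synthesis, were higher by 1.27 and 1.03, and HIS6 lower, at -1.45. The 5 higher genes became 3 without H2AZ_4KR replicate 3, and the 3 lower ones 1 without H2AZ_4KR replicate 1 or 2. ARG4 was lower than WT_H2AZ, at -0.78. Sulfur and methionine genes had 8 higher and 3 lower of 31, with the permease genes MUP3 and SAM3 at 1.65 (SE 0.24, adjusted p = 0.003) and 1.07 (SE 0.18, adjusted p = 0.00441), CBF1, a transcription factor gene, at 0.74 and JLP1, a sulfonate dioxygenase gene, at -1.43. Without H2AZ_4KR replicates 1, 2 and 3 the count of 8 was 5, 2 and 4, and without WT_Ino80 replicate 3 it was 5, and 4 under total counts. The 3 lower genes became 1 without any 1 of the H2AZ_4KR libraries. CBF1 was not called without H2AZ_4KR replicate 2.

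Genes under nitrogen catabolite repression had 8 higher and 4 lower of 30, beside 2 higher and 9 lower against WT_H2AZ. CAR2, the ornithine transaminase of arginine use, stood at 176, 200 and 198 CPM in the mutant, 24, 25 and 24.6 CPM in WT_Ino80 and 174, 192 and 173 CPM in WT_H2AZ. Mutant and WT_H2AZ overlapped at a level far above WT_Ino80, and its log2 fold change was 3.05 (SE 0.15, adjusted p = 4.46e-05). CAR1 (arginase) was higher by 1.80 (SE 0.23, adjusted p = 0.00202), while DAL1 and DAL2, of allantoin use, were lower, at -3.24 (SE 0.32, adjusted p = 0.000934) and -2.24 (SE 0.25, adjusted p = 0.00134), and also lower than WT_H2AZ, at -1.17 and -1.45. DUR12 (urea amidolyase) and GLN1 (glutamine synthetase) lay above all 6 wild-type libraries, at 1.76 (SE 0.27, adjusted p = 0.00332) and 1.55 (SE 0.22, adjusted p = 0.00261). The count of 8 higher genes was 5 without H2AZ_4KR replicate 3.

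Iron genes had 8 higher and 4 lower of 33. HMX1, the heme oxygenase gene, stood at 9.77, 17.5 and 9.53 CPM in the mutant, 179, 116 and 88.5 CPM in WT_Ino80 and 26, 31.5 and 24.1 CPM in WT_H2AZ, and was lowest in every mutant library, at -3.32 (SE 0.38, adjusted p = 0.00143). FRE4, a ferric reductase gene, was lower, at -2.17 (SE 0.18, adjusted p = 0.000528) and ENB1, a siderophore transporter gene, at -0.71, while FRE3 was higher by 1.14. FIT2 (cell wall mannoprotein) and ARN1 (siderophore transporter), chosen after their values were seen, were higher by 1.36 (SE 0.26, adjusted p = 0.00705) and 0.78 (SE 0.21, adjusted p = 0.027). The count of 8 was 3, 4 and 4 without H2AZ_4KR replicates 1, 2 and 3, and 4 without WT_Ino80 replicate 3 or under total counts. ARN1 was not called without H2AZ_4KR replicate 1, 2 or 3 or WT_Ino80 replicate 1 or 3.

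Zinc and copper genes had 1 higher and 4 lower of 15. ZRT1, the high-affinity zinc transporter, stood at 68.3, 40.7 and 81.8 CPM in the mutant, 210, 323 and 326 CPM in WT_Ino80 and 101, 103 and 111 CPM in WT_H2AZ. It was lowest in every mutant library, at -2.06 (SE 0.26, adjusted p = 0.00199), and did not pass against WT_H2AZ, at -0.58 (SE 0.21, adjusted p = 0.0661). The Zap1 site printed in the ZRT1 window was found in 5 of 5988 windows, among them ZRT1 and ZRG17. IZH2 and ZPS1 were lower, at -1.28 and -0.90, and CTR1, the copper transporter gene, higher by 0.59. The count of 4 was 2 without H2AZ_4KR replicate 2, and 6 without WT_Ino80 replicate 1. Phosphate genes had 3 higher and 4 lower of 26, with GIT1, PHM7 and PHM6 lower, at -2.72 (SE 0.42, adjusted p = 0.00326), -1.42 (SE 0.27, adjusted p = 0.00724) and -2.16 (SE 0.42, adjusted p = 0.00849) and PHO87, a low-affinity phosphate transporter gene, higher by 1.25 (SE 0.25, adjusted p = 0.00852). Without any 1 of the H2AZ_4KR libraries 1 was higher, and without WT_Ino80 replicate 3 there were 2. ZPS1 was not called without H2AZ_4KR replicate 2. CTR1 was not called without H2AZ_4KR replicate 1 or 2 or WT_Ino80 replicate 1 or 3.

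Ergosterol synthesis had 4 higher and 1 lower of 27, with ECM22, a sterol regulator, at 1.13 (SE 0.17, adjusted p = 0.003), ERG28 and ERG4 at 1.09 and 0.73 and ERG29 at -0.62. Inositol and phospholipid genes had 4 higher and 1 lower of 21, with CKI1 (choline kinase), OPI3 and INO2 higher by 0.83 (SE 0.14, adjusted p = 0.00495), 1.74 (SE 0.34, adjusted p = 0.00836) and 0.84 (SE 0.20, adjusted p = 0.0156), the lower gene being GIT1. Both counts of 4 were 2 without H2AZ_4KR replicate 1 or 3. That of the phospholipid genes was also 2 without H2AZ_4KR replicate 2 or WT_Ino80 replicate 3, and under total counts. Fatty acid oxidation genes had 0 higher and 1 lower of 26, beside 0 higher and 8 lower against WT_H2AZ. ERG4 was not called without H2AZ_4KR replicate 1 or 3. ERG29 was not called without H2AZ_4KR replicate 1, 2 or 3. INO2 was not called without H2AZ_4KR replicate 1, 2 or 3 or WT_Ino80 replicate 3.

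Hypoxic and heme-regulated genes had 5 higher and 5 lower of 26, beside 1 higher and 7 lower against WT_H2AZ. DAN1, an anaerobic wall mannoprotein gene, stood at 35.1, 69.4 and 213 CPM in the mutant, 6.18, 30.5 and 4.83 CPM in WT_Ino80 and 17, 28.3 and 10.8 CPM in WT_H2AZ. The mutant libraries spread widely above all 6 wild-type libraries, with 3.09 (SE 0.81, adjusted p = 0.0246), the highest log2 fold change among called genes that average 10 CPM or more and whose groups do not overlap. TIR3, another wall protein gene, was higher by 1.35 (SE 0.32, adjusted p = 0.0177). CTT1 (catalase) and NCE103 (carbonic anhydrase) were lower, at -0.83 (SE 0.19, adjusted p = 0.0147) and -2.03 (SE 0.47, adjusted p = 0.0151), and PAU24, at 2.6 CPM or less in each of these libraries, at -2.73. Both counts of 5 fell to 0 without H2AZ_4KR replicate 3. The higher count was also 0 without WT_Ino80 replicate 3, 1 without H2AZ_4KR replicate 2 and 8 without WT_Ino80 replicate 2. The lower count was 1 and 3 without H2AZ_4KR replicates 1 and 2. DAN1 was not called without H2AZ_4KR replicate 2 or 3 or WT_Ino80 replicate 3. TIR3 was not called without H2AZ_4KR replicate 3 or WT_Ino80 replicate 3. CTT1 and NCE103 were not called without H2AZ_4KR replicate 1 or 3. PAU24 was not called without H2AZ_4KR replicate 2 or 3.

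Among mating genes, MFA2, which encodes a-factor, stood at 275, 364 and 406 CPM in H2AZ_4KR, 46.1, 73.9 and 56 CPM in WT_Ino80 and 198, 405 and 199 CPM in WT_H2AZ. Mutant and WT_H2AZ overlapped above WT_Ino80, with 2.68 (SE 0.20, adjusted p = 0.000389). AGA2, of a-agglutinin, was higher by 1.37 (SE 0.22, adjusted p = 0.00389), and STE2, the α-factor receptor gene chosen after its values were seen, stood at 0.74 and did not pass. Of 7 a-specific genes 2 were higher and 0 lower, and 4 were higher without WT_Ino80 replicate 1 or 2. STE3, the a-factor receptor gene of α cells, stood at 1.72, 2.09 and 0.976 CPM in the mutant, 14.7, 12.8 and 14.6 CPM in WT_Ino80 and 2.75, 2.22 and 2.49 CPM in WT_H2AZ. On the CPM scale it was lowest in every mutant library, at -3.06 (SE 0.34, adjusted p = 0.00138). After TMM scaling it did not lie below all 6 wild-type libraries, and it was not called against WT_H2AZ, at -0.50. MF(ALPHA)1 and MF(ALPHA)2, the α-factor genes, were lower, at -2.65 and -1.21, at 21.6 CPM or less in every library. The summed level of 4 α-specific genes ranged from 55 to 62 CPM in the mutant and from 49 to 76 CPM in WT_Ino80. That sum includes SAG1, the remaining member, which went the other way, at 0.99, and was not called. Without H2AZ_4KR replicate 1 or 2 the count of 3 lower α-specific genes was 1, and it was 2 without H2AZ_4KR replicate 3. MF(ALPHA)1 was not called without H2AZ_4KR replicate 1 or 2. MF(ALPHA)2 was not called without H2AZ_4KR replicate 1, 2 or 3.

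Pheromone response genes had 4 higher and 2 lower of 26, beside 1 higher and 7 lower against WT_H2AZ. AGA1, the anchor of a-agglutinin, stood at 156, 157 and 131 CPM in the mutant, 13.1, 53.5 and 34.2 CPM in WT_Ino80 and 373, 314 and 188 CPM in WT_H2AZ. It lay between both wild types without overlap, at 2.28 (SE 0.37, adjusted p = 0.00403) and -0.83 (SE 0.20, adjusted p = 0.0128). FUS3, the MAP kinase gene, and FIG2 were higher by 1.09 (SE 0.15, adjusted p = 0.00265) and 1.16 (SE 0.23, adjusted p = 0.00827), and PRM9 was lower, at -2.42 (SE 0.29, adjusted p = 0.00178). The count of 4 was 8 without WT_Ino80 replicate 2, and that of 2 was 1 without H2AZ_4KR replicate 1 or 3 or WT_Ino80 replicate 3. Filamentation and flocculation genes had 5 higher and 1 lower of 14, with TEC1, MSB2 and MSS11 at 1.24 (SE 0.17, adjusted p = 0.0022), 1.60 (SE 0.32, adjusted p = 0.00852) and 0.98 and the flocculin FLO1 at -1.66 (SE 0.21, adjusted p = 0.00207). Without H2AZ_4KR replicates 1, 2 and 3 the count of 5 was 2, 2 and 3. MSS11 was not called without H2AZ_4KR replicate 1 or 2.

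Meiosis genes, mostly silent in dividing cells, had 2 higher and 6 lower of 23. SPS2, SPR3, SPO13 and REC8 were lower, at -2.96 (SE 0.27, adjusted p = 0.0007), -2.56 (SE 0.34, adjusted p = 0.0022), -2.23 (SE 0.30, adjusted p = 0.00232) and -2.99 (SE 0.44, adjusted p = 0.003). All 4 stood at 15 CPM or less in every library, and SPS2 and SPO13 were also lower than in WT_H2AZ, at -2.12 and -1.20. NDJ1, a meiotic telomere protein gene, went the other way, at 44.8, 34.4 and 55.9 CPM in the mutant, 6.3, 7.17 and 4.56 CPM in WT_Ino80 and 48.1, 42.6 and 33.1 CPM in WT_H2AZ. Its mutant and WT_H2AZ levels overlapped, with 2.996 (SE 0.26, adjusted p = 0.000655) against WT_Ino80. The count of 6 lower genes was 9 without WT_Ino80 replicate 1, and that of 2 higher genes was 0 without any 1 of the H2AZ_4KR libraries and 1 without WT_Ino80 replicate 1 or 2 or under total counts.

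Mitotic and daughter-cell genes had 7 higher and 0 lower of 27, among them the transcription factor gene SWI5 at 0.98 (SE 0.19, adjusted p = 0.00774) and the septum genes CTS1 and EGT2 at 0.94 and 1.35. Genes of the G1/S transition had 6 higher and 1 lower of 39, with SVS1, SRL1 and RNR4 at 1.001 (SE 0.17, adjusted p = 0.00433), 1.48 (SE 0.28, adjusted p = 0.00699) and 0.64. Relative to WT_H2AZ, 11 of the G1/S genes were higher and 0 lower. POL30, which encodes PCNA, stood at 10.7, 12.1 and 13.2 CPM in the mutant, 31.3, 36.7 and 21.5 CPM in WT_Ino80 and 9.45, 6.65 and 8.1 CPM in WT_H2AZ. It was lower than WT_Ino80, at -1.23 (SE 0.24, adjusted p = 0.00782) and higher than WT_H2AZ by 0.71 (SE 0.20, adjusted p = 0.0283). Without any 1 of the H2AZ_4KR libraries the mitotic and G1/S counts of genes higher than in WT_Ino80 were both 2. Without WT_Ino80 replicate 3 both were 3. The G1/S count was 10 without WT_Ino80 replicate 2. Under total counts both were 2, with 2 lower genes in the G1/S list. CTS1 was not called without H2AZ_4KR replicate 1, 2 or 3. EGT2 was not called without H2AZ_4KR replicate 1, 2 or 3 or WT_Ino80 replicate 3. RNR4 was not called without H2AZ_4KR replicate 1, 2 or 3 or WT_Ino80 replicate 2 or 3.

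Genes of the machinery that handles H2A.Z were called in both directions, as were all genes tested, at 10.2% higher and 12.5% lower. In the SWR1 complex, counted with HTZ1, 3 of 15 were higher and 2 lower. SWR1, the ATPase, stood at 151, 167 and 130 CPM in the mutant, 71.4, 107 and 91.9 CPM in WT_Ino80 and 115, 115 and 97.8 CPM in WT_H2AZ, above all 6 wild-type libraries, at 0.83 (SE 0.15, adjusted p = 0.00662) and 0.59 (SE 0.11, adjusted p = 0.00494). BDF1, a bromodomain subunit gene chosen after its values were seen, was the other higher member at 0.59. VPS71 and YAF9 were lower, at -1.38 (SE 0.23, adjusted p = 0.00475) and -0.95 (SE 0.17, adjusted p = 0.00573). The count of 3 was 2 without any 1 of the H2AZ_4KR libraries or without WT_Ino80 replicate 1 or 2. BDF1 was not called without H2AZ_4KR replicate 1, 2 or 3 or WT_Ino80 replicate 1 or 2. With an offset for gene length, SWR1 and BDF1 were not called, while HTZ1, VPS71 and YAF9 were. The part of gene length in these directions was not tested.

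In NuA4, which shares YAF9 with SWR1, 1 of 13 was higher and 3 lower, with YNG2 and EAF3 at -0.98 (SE 0.15, adjusted p = 0.00341) and -0.88 (SE 0.20, adjusted p = 0.0139) and EPL1 at 0.68 (SE 0.21, adjusted p = 0.0448). INO80 complex genes had 0 higher and 3 lower of 15, NHP10, TAF14 and IES2, at -1.15 (SE 0.18, adjusted p = 0.00375), -0.73 (SE 0.17, adjusted p = 0.0172) and -0.83 (SE 0.24, adjusted p = 0.0341). That count was 1 without any 1 of the H2AZ_4KR libraries or without WT_Ino80 replicate 1. None of the genes called in these 2 complexes was called against WT_H2AZ. The count of 3 lower NuA4 genes was 2 without H2AZ_4KR replicate 1 or 3. EAF3 was not called without H2AZ_4KR replicate 1 or 3. EPL1 and IES2 were not called without H2AZ_4KR replicate 1, 2 or 3 or WT_Ino80 replicate 1 or 3. TAF14 was not called without H2AZ_4KR replicate 1, 2 or 3 or WT_Ino80 replicate 1. With an offset for gene length, EPL1 and TAF14 were not called either.

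Silencing and deacetylase genes had 3 higher and 2 lower of 24. SIR2, the silencing deacetylase, stood at 27.9, 28.7 and 30.7 CPM in the mutant, 73.6, 69.3 and 57.7 CPM in WT_Ino80 and 41.7, 41.1 and 34.5 CPM in WT_H2AZ. It was lowest in every mutant library, at -1.12 (SE 0.18, adjusted p = 0.00394), and was not called against WT_H2AZ, at -0.28 (SE 0.11, adjusted p = 0.0901). SUM1, HOS3 and SIN3 were higher by 0.82, 0.84 and 0.80. Without H2AZ_4KR replicate 1 or 2 none was called higher, and 1 was without H2AZ_4KR replicate 3 or under total counts. The 2 lower genes became 5 without WT_Ino80 replicate 1, and 1 without any 1 of the H2AZ_4KR libraries or without WT_Ino80 replicate 3. Of 10 histone genes 0 were higher and 1 was lower, the centromeric variant CSE4 at -0.92 (SE 0.22, adjusted p = 0.0183), named after its values were seen. That gene was not called without any 1 of the H2AZ_4KR libraries, and 3 were lower without WT_Ino80 replicate 2. HTA1 and HTA2, which encode the H2A that H2A.Z replaces and were also named after their values were seen, stood at -0.11 and -0.19 and did not pass. SUM1 was not called without H2AZ_4KR replicate 1 or 2. HOS3 and CSE4 were not called without H2AZ_4KR replicate 1, 2 or 3. SIN3 was not called without H2AZ_4KR replicate 1, 2 or 3 or WT_Ino80 replicate 1.

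Genes near chromosome ends were called lower more often than higher against either wild type. Of 218 genes tested within 20 kb of an end, 70 were lower and 11 higher than in WT_Ino80, with a median of -0.45. Against WT_H2AZ 62 of 210 were lower and 5 higher, with a median of -0.36. For 61 of the 218, every mutant library lay below all 6 wild-type libraries, and for 53 after TMM scaling, against 10.8% and 7.09% of all genes tested. GEX2, a glutathione exchanger gene, stood at 2.39, 2.32 and 3.39 CPM in the mutant, 40.2, 44.3 and 55.8 CPM in WT_Ino80 and 15.6, 10.9 and 15.7 CPM in WT_H2AZ. The 3 groups did not overlap, and it was lower, at -4.02 (SE 0.24, adjusted p = 0.000151) and -2.25 (SE 0.26, adjusted p = 0.000445). YDR541C, YER187W and AIF1, the last a mitochondrial cell death effector gene, were lower, at -2.42 (SE 0.18, adjusted p = 0.000389), -3.59 (SE 0.29, adjusted p = 0.000499) and -2.07 (SE 0.17, adjusted p = 0.000537).

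The share of lower genes against WT_Ino80 was 28.3% at 0 to 10 kb from an end, 35.3% at 10 to 20 kb, 22.4% at 20 to 30 kb, 15% at 30 to 50 kb and 11.4% beyond 100 kb. Against WT_H2AZ these shares were 26.6%, 31.9%, 22.5%, 13.1% and 5.63%. Many genes near ends had low levels, and lower calls were more frequent at low levels in general, at 18.4% of genes below a mean of 10 CPM and 1.81% of genes from 1000 CPM. Among genes with a mean of 10 to 30 CPM, 53.1% of 49 near an end were lower against 17.7% of 1042 farther away. Below 10 CPM the shares were 33.6% of 110 and 16.2% of 747, and from 30 to 100 CPM they were 11.1% of 36 and 10.8% of 2418. Without H2AZ_4KR replicates 1, 2 and 3 the count of 70 was 51, 46 and 50, and without WT_Ino80 replicate 1 it was 83. The count of 11 higher genes was 6 without H2AZ_4KR replicate 2 or 3.

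**Figure D4:**
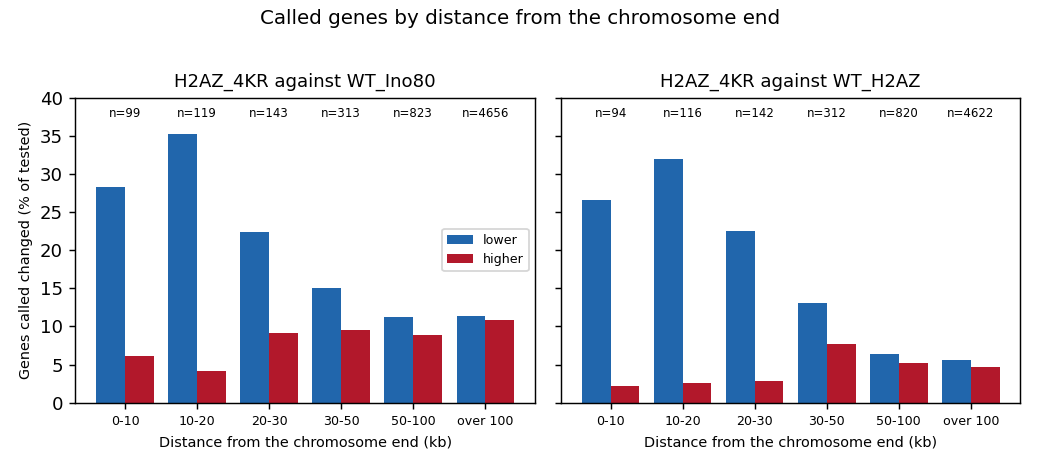
Percent of tested genes called lower or higher in H2AZ_4KR against each wild type, by distance of the gene from the chromosome end in kb, with the number tested above the bars. Lower calls reach 35.3% at 10 to 20 kb against WT_Ino80 and 31.9% against WT_H2AZ, and higher calls reach at most 10.8% in any bin.

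COS genes, a family found at chromosome ends, went against that direction. Of 12 genes 6 were higher than in WT_Ino80 and 0 lower, with a median of 0.95, but against WT_H2AZ 0 were higher and 3 lower, with a median of 0.06. COS8 stood at 118, 105 and 119 CPM in the mutant, 33.6, 51.3 and 46.3 CPM in WT_Ino80 and 97.2, 94.7 and 84.6 CPM in WT_H2AZ, above all 6 wild-type libraries, at 1.49 (SE 0.15, adjusted p = 0.00106). COS9, COS1 and COS3 were higher by 1.02 (SE 0.15, adjusted p = 0.00289), 0.90 (SE 0.18, adjusted p = 0.00967) and 1.15 (SE 0.27, adjusted p = 0.0173). Members are near-identical, so reads may be left out or split between them. The count of 6 was 3 without H2AZ_4KR replicate 2 or 3. Ty retrotransposon genes, also repeated, had 3 higher and 0 lower of 26, with YPR137C-B at 2.40 (SE 0.41, adjusted p = 0.00497) and YDR261C-D at 1.62 (SE 0.30, adjusted p = 0.007), and their count was 5 and 6 without WT_Ino80 replicates 1 and 2 and 1, 2 and 1 without H2AZ_4KR replicates 1, 2 and 3. COS3 was not called without H2AZ_4KR replicate 2 or 3 or WT_Ino80 replicate 3.

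On the CPM scale, the 3 mutant libraries lay above all 6 wild-type libraries for 131 of 6153 genes (2.13%) and below all of them for 662 (10.8%). Scaled by TMM factors, the counts were 309 (5.02%) and 436 (7.09%), so the balance of directions depends on the scaling. Of the called genes that average 10 CPM or more and do not overlap with WT_Ino80, 78 of 594 higher and 260 of 609 lower genes lay outside all 6. Beside genes already described, QDR2, a multidrug transporter gene, and the uncharacterised YNL040W were among the highest, at 2.12 (SE 0.17, adjusted p = 0.000523) and 2.31 (SE 0.23, adjusted p = 0.00102). The 10 lowest included SDD1 and ADH7, an alcohol dehydrogenase gene, which stood at -3.86 (SE 0.42, adjusted p = 0.00134) and -3.10 (SE 0.28, adjusted p = 0.0007) against WT_Ino80 and at -1.23 and -1.67 against WT_H2AZ. REG2, a subunit of the Glc7 phosphatase that acts in glucose repression, UBP11, a ubiquitin protease gene, and POX1, of fatty acid oxidation, chosen after their values were seen, were lower, at -1.62 (SE 0.37, adjusted p = 0.0149), -1.38 (SE 0.23, adjusted p = 0.00474) and -1.34 (SE 0.20, adjusted p = 0.0031), and at -1.98, -2.003 and -1.24 against WT_H2AZ. REG2 was not called without H2AZ_4KR replicate 1, 2 or 3.

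**Figure D5:**
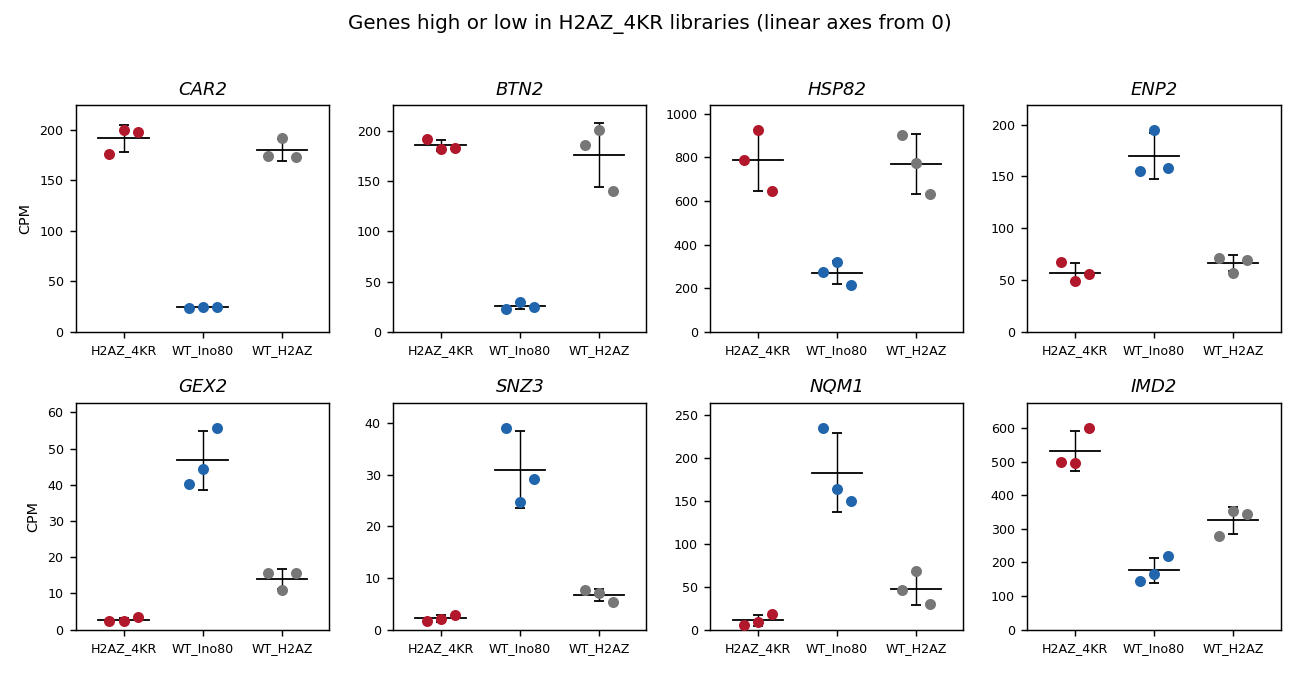
CPM of 8 genes in each library of the 3 groups on linear axes from 0, with points for libraries, long bars for means and error bars for the SD of 3 libraries. CAR2, BTN2, HSP82 and ENP2 overlap between H2AZ_4KR and WT_H2AZ, GEX2, SNZ3 and NQM1 are lower in the mutant than in all 6 wild-type libraries, and IMD2 is higher.

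Of the called genes that average 10 CPM or more, 287 of 606 higher ones (47.4%) and 227 of 613 lower ones (37%) had a log2 fold change within 0.2 of 0 against WT_H2AZ. Over all 5296 genes tested at that level the share was 47.2%. The highest of these beside HSP78 were ROQ1, YFL019C, DEF1, an RNA polymerase II degradation factor gene, and VPS73, of protein sorting, at 2.13 (SE 0.36, adjusted p = 0.00486), 2.12 (SE 0.38, adjusted p = 0.00586), 2.04 (SE 0.31, adjusted p = 0.00304) and 1.96 (SE 0.16, adjusted p = 0.000499) against WT_Ino80. VPS73 stood at 66, 71.2 and 72.2 CPM in the mutant, 16.8, 19 and 21.7 CPM in WT_Ino80 and 67.3, 86 and 70.5 CPM in WT_H2AZ. The lowest were JJJ3, a diphthamide synthesis gene, the small nucleolar RNAs snR86 and snR4, LSR1, which is the U2 spliceosomal RNA, and SSF1, of ribosome biogenesis, at -2.65 (SE 0.31, adjusted p = 0.00152), -2.21 (SE 0.21, adjusted p = 0.000739), -1.82 (SE 0.24, adjusted p = 0.00214), -2.15 (SE 0.40, adjusted p = 0.00696) and -1.78 (SE 0.31, adjusted p = 0.00535). snR86 stood at 104, 84.2 and 118 CPM in the mutant, 474, 429 and 601 CPM in WT_Ino80 and 94.5, 97.6 and 105 CPM in WT_H2AZ. SPO24, a sporulation gene that was higher than WT_Ino80 by 2.32 (SE 0.38, adjusted p = 0.00434), stood at 595, 625 and 865 CPM in the mutant and 1042, 1223 and 1042 CPM in WT_H2AZ, below it without overlap but not called.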

How the data were processed

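Libraries were made from total RNA with an HTP KAPA kit, per the labels' protocols. Values are raw read counts per gene as deposited by the authors, counted with featureCounts 2.0.1 per the file headers, as paired fragments over exons, with no strand option, so overlapping and antisense genes cannot be told apart. The submitters' processing notes name Bowtie 0.12.2 and sacCer3. Of 7127 gene IDs, 6047 matched the R64 reference, used for names and sequences, and 98.9% of the matched lengths are multiples of 3 (coding length).

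Each comparison used its own 6 libraries in edgeR 4.0.16 (R 4.3.3), with filterByExpr at a minimum count of 10, TMM factors and the quasi-likelihood F test, two-sided, with Benjamini-Hochberg adjustment over all genes tested. CPM used total counts. Alternatives included DESeq2 1.42.0, limma-voom 3.58.1, total counts, a replicate block, offsets and each library left out. The GC offset, the other settings for values outside all wild-type libraries and the split of distance by level were added after seeing the data. On data simulated for H2AZ_4KR against WT_Ino80 over 6121 genes, the call recovered 2, 29 and 50 of each 50 genes raised by folds of 1.5, 2 and 4 and 39 of 50 lowered to a fold of 0.5, and 17 of 5921 unchanged genes were called. A simulated fold of 1.5 sits at the limit of the call itself. The counts were drawn independently for each gene, with no difference between tables and no shift of a whole library. False calls from either were thus not measured.

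Named genes were HTZ1 and the markers, the 10 highest and lowest log2 fold changes among called genes that average 10 CPM or more and whose groups do not overlap, the same among genes outside all 6 wild-type libraries, the 5 highest and lowest within 0.2 of 0 against WT_H2AZ, all leucine genes, and up to 4 called genes per list with the smallest adjusted p, from lists with at least 5 or 20% of members called. A gene that this rule names is not reported here. The members and lists were chosen with earlier results of these data known. List symbols that did not match any gene, 2 in all, were left out.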

Additional observations from a re-analysis of the deposited data

Results flagged for a closer look

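Among the genes whose values are printed, named by rule or chosen after seeing values, 10 were called in opposite directions against the wild types, while the wild types themselves differed by the edgeR test. The screen covered these genes only and itself required a call between the wild types. Opposite calls with the same mutant libraries also require the wild types to differ. The values below therefore describe the selected genes and are no separate support. The log2 fold change of WT_Ino80 against WT_H2AZ was -3.11 for AGA1, -2.24 for LEU1, -2.20 for USV1, -2.18 for TEC1 and -2.05 for ARG4. It was -2.01 for MTH1, -1.90 for FIG2, -1.72 for PYK2 and -1.48 for ATH1. These 9 genes were higher in H2AZ_4KR than in WT_Ino80 and lower than in WT_H2AZ. POL30 went the other way, with 1.94. The largest adjusted p among the 10 was that of MTH1, 0.00271. The wild types differ in LEU2 and in deposited table, and the part of either in these values cannot be told apart.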

How the results depend on the processing

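Against WT_Ino80, the 1401 called genes (630 higher, 771 lower) became 699 (261 and 438) at a fold over 2, 458 (149 and 309) with glmTreat and 729 (312 and 417) with a replicate block. Total counts gave 414 higher genes. With 1 library left out, changed genes ranged from 692 to 1624, 270 to 687 higher and 422 to 937 lower. Without H2AZ_4KR replicate 1, 2 or 3, there were 335, 270 or 338 higher and 492, 422 or 473 lower. DESeq2 called 1655, all 1401 among them, and 727 of the 729 with the block were among the 1401. Deviations of same-numbered H2AZ_4KR and WT_Ino80 libraries from their group means correlated negatively, at r of -0.43, -0.39 and -0.20, so the numbers do not pair them. The 739 genes against WT_H2AZ became 346 in a fit of 12 libraries, 239 at a fold over 2, 113 with glmTreat and 1400 with no fold limit. The 1843 genes between the wild types became 905, 599 and, with 1 library left out, 1079 to 1985, the first for fold over 2 and the next for glmTreat. Outside all wild-type libraries, 131 and 662 genes became 309 and 436 with TMM scaling, and 1037 were lower without WT_Ino80 replicate 1. Over all named and extra genes and all settings, 34 log2 fold changes against WT_Ino80, 98 against WT_H2AZ and 15 between the wild types changed sign, in each case of a gene called in neither setting. Of those printed, the values that turned, with their ranges, were: BAT2 -0.024 (GC offset) and -0.017 (total counts), and -0.117 to 0.323 with 1 library left out. HTA1 0.041 (length offset), and -0.308 to 0.137 with 1 library left out. LYS2 -0.139 (length offset), and -0.048 to 0.254 with 1 library left out. TRP1 0.146 (length offset), and -0.174 to 0.109 with 1 library left out. OAC1 -0.016 (total counts), and -0.044 to 0.363 with 1 library left out. HTA2 -0.343 to 0.032 with 1 library left out. CAT8 -0.346 to 0.014 with 1 library left out. Against WT_Ino80, 66 of 189 genes with a printed value lost their call under at least 1 setting and 7 gained one. Those losing it with an offset for gene length included ADE2, ADE3, ATH1, BDF1, EPL1, ERG29, LEU1, PGM1, SIN3, SUM1, SWR1 and TAF14. The cause was not tested. The labels name no separate cultures, and 3 libraries a group limit what can be called.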
